A study of Mus musculus with 24 samples.

Results

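The interferon-stimulated genes examined here are 40 mouse genes that respond to interferon, and their signal is described across 8 groups of spleen B cells with 3 arrays each. Of the 40, 38 had a probe set annotated to that gene alone, out of 18193 such genes on the array, and where a gene had several, the brightest on average across the 24 arrays stood for it. Isg15 and Ifi44 were not analysed here. All 38 measured genes were among the 11208 genes tested. All cells came from the spleen of female C57BL/6 mice aged 8 to 10 weeks, the age at immunization for the immunized mice. Follicular B cells were sorted as B220+ AA4.1- CD21int CD23+ cells, and marginal zone B cells, which sit at the edge of the follicle, as B220+ AA4.1- CD21high CD23low cells. Stimulated follicular B cells were the same sorted population kept for 6 h with 10 µg/ml of an antibody fragment against IgM and 2 µg/ml of an antibody against CD40. Memory and germinal center B cells bound the hapten NIP and were IgG1+. They were sorted at day 7 and at day 40 after immunization with the hapten NP on a protein carrier in alum, memory cells as CD38+ PNA- and germinal center cells as CD38dull PNA+. Plasma cells were sorted at day 7 as hapten-binding CD138+ cells with low IgG1 and the lambda light chain. No unstimulated culture was analysed here, so stimulation and the 6 h of culture cannot be told apart. Immunized groups and follicular cells also differ in immunization, in the antibodies used for depletion and in the sort.

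Interferons are secreted proteins that signal through paired receptor chains and the kinases Jak1, Jak2 and Tyk2. Type I interferon activates a complex that includes Stat2 and Irf9 and binds interferon-stimulated response elements in promoters, while interferon gamma acts at gamma-activated sites. The genes switched on this way sense foreign nucleic acid, block viral replication, attack the vacuoles of intracellular pathogens and raise antigen processing, and many are also transcribed at a low, constant level in resting lymphocytes.

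Signals were log2 values between a floor of 2.15 and 16.43, array medians ran from 2.39 to 2.86, and a log2 difference of 1 is a 2-fold change. A gene was taken to be at background in a group where each of the 3 arrays lay at or below its own median, and a difference from such a group is a lower bound on its size. A gene was called where its limma adjusted p was under 0.05 and its log2 difference at least 1 in size. Labels do not say that the arrays of a group came from separate animals, so p-values measure only the spread between these samples, which may be technical. Arrays of a group correlated at r = 0.961 to 0.996 across the tested genes. Memory day 7 replicate 1 correlated more with day 7 germinal center arrays (mean r = 0.947) than the other memory arrays of that day (0.903 and 0.910). It also held neutrophil transcripts: the summed signal of 6 neutrophil markers, as log2, was 14.28 there, 12.90 on memory day 40 replicate 2 and 14.37 on germinal center day 40 replicate 1. It was lower but above the 4.75 or less of arrays without these transcripts on memory day 40 replicates 3 (11.66) and 1 (7.06), germinal center day 7 replicates 2 (10.32) and 1 (9.72) and memory day 7 replicate 3 (7.68). On all 3 plasma cell arrays that sum was 14.87 to 15.18, and in the follicular, stimulated and marginal zone groups all 6 markers were at background. The 4 measured B cell markers were above background in follicular cells, where their summed signal was 16.60 to 16.71. Markers of the labelled cell types mostly rose against follicular cells where the labels place them. In marginal zone cells 6 of 6 marginal zone markers rose, and in memory cells of each day 4 of 4 memory markers. In germinal center cells of each day 8 of 9 germinal center markers rose, and in plasma cells 5 of 6 plasma cell markers. Of all tested genes, 7.21% to 20.3% were called higher in these comparisons. Some markers also rose elsewhere, among them 5 of 9 germinal center markers in memory cells of each day and in plasma cells. The memory marker Nt5e rose in germinal center cells of each day and was higher there than in memory cells at day 40. Of 2 tested follicular markers, Fcer2a fell and Cr2 rose in marginal zone cells. In bulk RNA, fewer cells expressing a gene and less RNA per cell cannot be told apart.

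The promoters of several of these genes carry the element through which interferon signals reach them, and the stretches that hold it are shown for 9 of the genes described in the comparisons that follow. The search used the letters GAAA, any 2 bases and GAAA again, on both strands, from 250 bases before to 50 after each annotated start in RefSeq (GRCm38.p6). A match was found for 14 of the 31 genes with a RefSeq promoter (45.2%), against 3.99% of all 27025 genes with one. Capitals mark the matches, which overlap in Bst2, Gbp3 and Irgm1, and a match on the other strand reads TTTC, 2 bases and TTTC. Sequences run from 5′ to 3′ on the strand of the gene.
Ifit1 (chr19:34640770-34640828, plus strand): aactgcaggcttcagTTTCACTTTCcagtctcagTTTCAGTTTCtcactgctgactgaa
Ifit3 (chr19:34583358-34583431, plus strand): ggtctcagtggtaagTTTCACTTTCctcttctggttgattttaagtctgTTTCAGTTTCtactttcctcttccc
Rsad2 (chr12:26456548-26456587, minus strand): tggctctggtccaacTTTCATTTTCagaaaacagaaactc
Bst2 (chr8:71537572-71537617, minus strand): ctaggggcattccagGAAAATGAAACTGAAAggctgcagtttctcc
Gbp2 (chr3:142620589-142620628, plus strand): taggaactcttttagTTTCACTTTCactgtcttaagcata
Gbp3 (chr3:142559984-142560029, plus strand): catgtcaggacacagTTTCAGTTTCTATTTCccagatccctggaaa
Irgm1 (chr11:48871421-48871465, minus strand): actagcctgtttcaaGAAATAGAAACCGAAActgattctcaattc
Igtp (chr11:58199507-58199546, plus strand): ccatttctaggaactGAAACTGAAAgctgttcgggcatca
Ifi213 (chr1:173599321-173599360, minus strand): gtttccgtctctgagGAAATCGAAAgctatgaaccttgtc

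**Figure D1:**
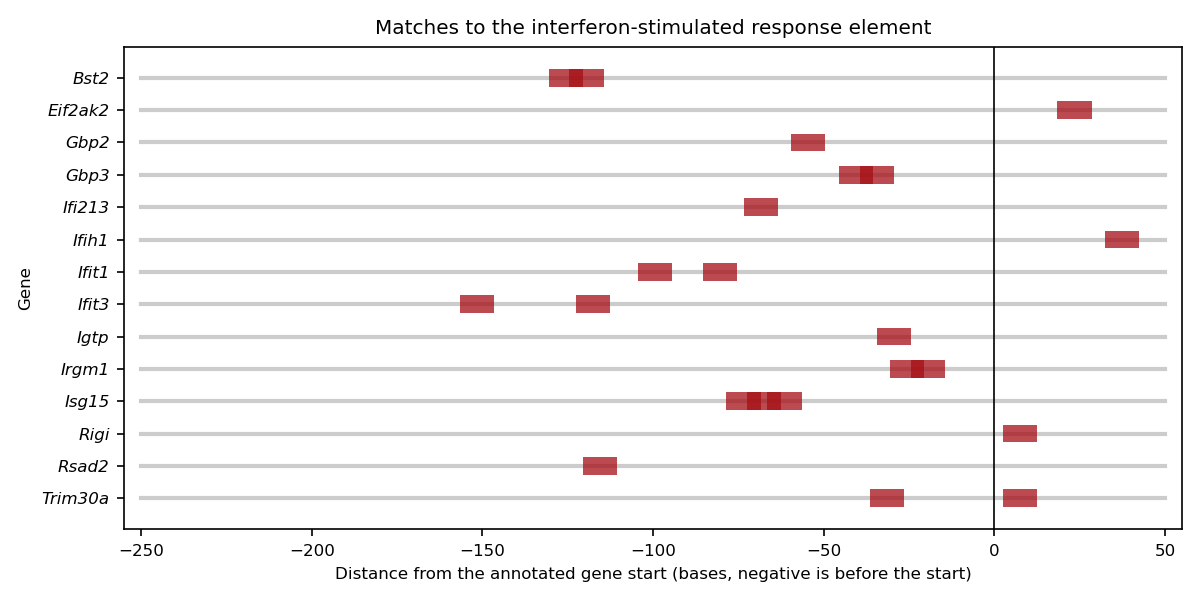
Positions of the response element matches in the promoters of 14 genes. The horizontal axis is the distance from the annotated gene start in bases, the grey line is the 300 bases searched and each red block is a match of 10 bases, darker where matches overlap. Most blocks lie before the start, and those of Eif2ak2, Ifih1, Rigi and 1 of the 2 of Trim30a, which has 2 annotated starts, lie after it.

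The gamma-activated site, searched as TTC, any 3 bases and GAA, was matched in 7 of the 31 promoters (22.6%), against 9.55% of all genes. These were Bst2, Eif2ak2, Ifi35, Ifit2, Igtp, Psmb8 and Samhd1. In Bst2 this match overlaps the first response element match. A match is a description of the letters, not of a bound factor. Several members also lie close together in the RefSeq annotation (GRCm38.p6): Rsad2 and Cmpk2; Ifit2, Ifit3 and Ifit1; Gbp3 and Gbp2; Parp14, Dtx3l and Parp9; Psmb9, Tap1 and Psmb8.

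On average, marginal zone and follicular cells carried the most signal of these genes, and stimulated follicular cells the least. With each gene centred on its own mean over the 24 arrays, the average over the 38 genes was 1.99 ± 0.15 (SD, n = 3) in marginal zone cells, 1.37 ± 0.34 in follicular cells, 0.74 ± 0.06 in plasma cells, 0.65 ± 0.30 and 0.42 ± 0.09 in memory cells of day 7 and day 40, -1.18 ± 0.10 and -1.37 ± 0.20 in germinal center cells of day 7 and day 40, and -2.62 ± 0.06 in stimulated follicular cells. In that order, the arrays of marginal zone and follicular cells did not overlap, while day 7 memory cells overlapped both plasma cells and day 40 memory cells, and the germinal center groups of both days overlapped each other. Single genes departed from this order. Marginal zone cells had the highest mean for 21 of the 38 genes, plasma cells for 8, follicular cells for 6, and day 7 memory, day 40 memory and day 7 germinal center cells for 1 each. Stimulated follicular cells had the lowest mean for 25 genes, germinal center cells of day 7 and of day 40 for 6 each, and plasma cells for 1. No gene was at background in follicular or marginal zone cells, and 8 were in stimulated cells.

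**Figure D2:**
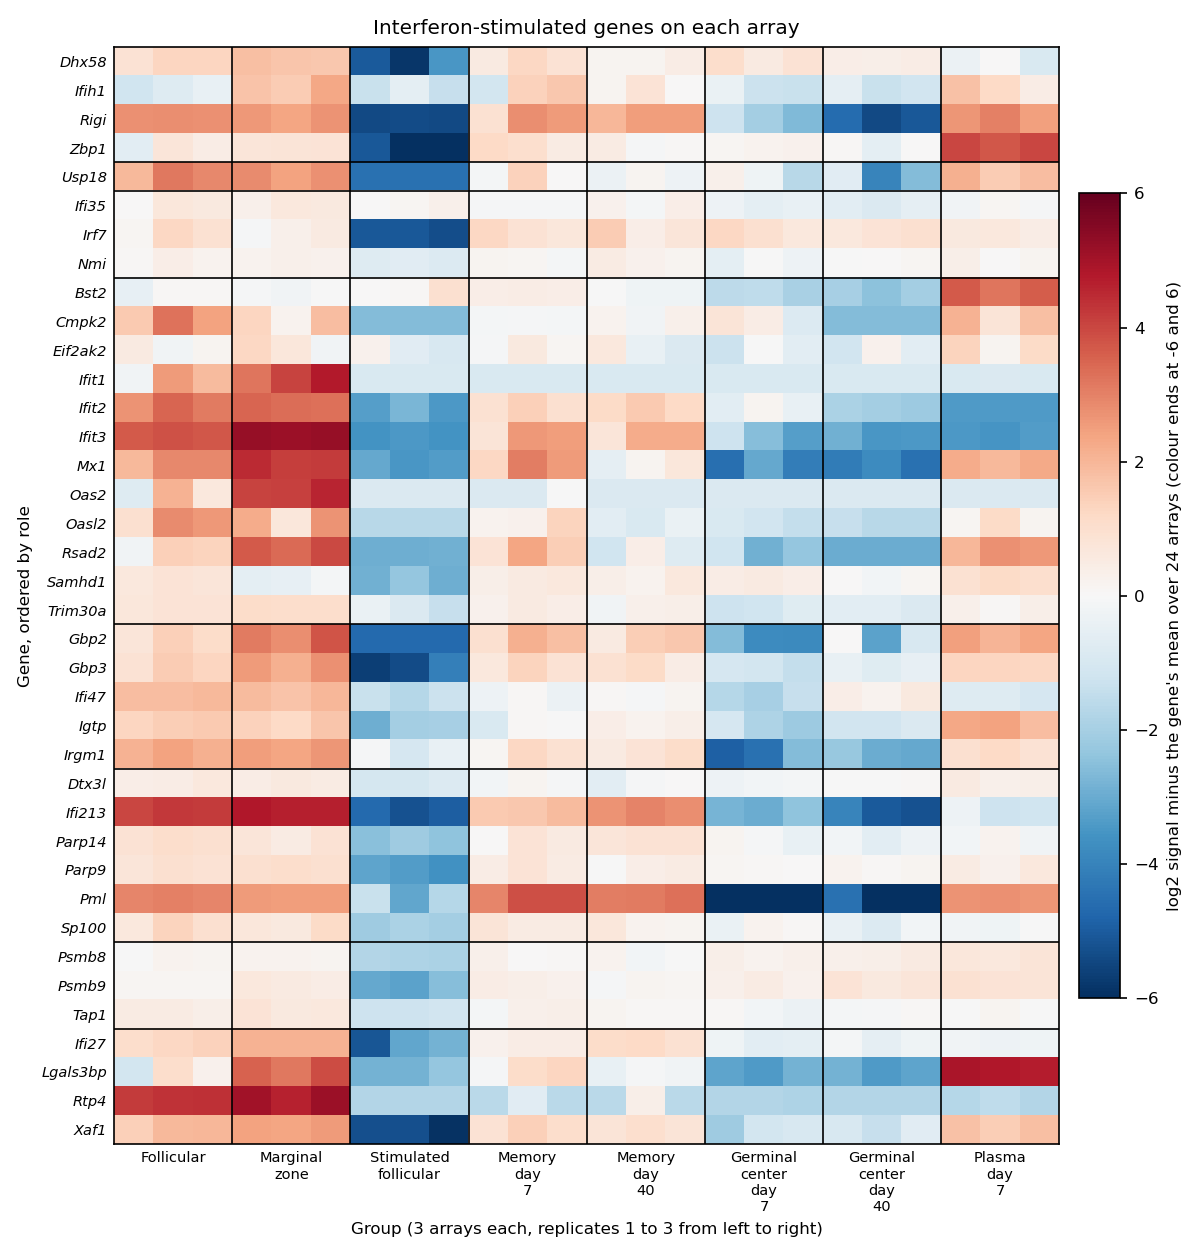
Heat map of the 38 measured genes (rows, ordered by role and separated by lines) on 24 arrays (columns, 3 per group). Colour is the log2 signal minus the gene's mean over all arrays, from blue (lower) to red (higher), with colours ending at -6 and 6. Stimulated follicular cells are blue for most rows, germinal center cells are blue for Pml, Ifi213, Mx1 and Rigi among others, and plasma cells are red for Zbp1, Bst2 and Lgals3bp.

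Among the sensors of foreign nucleic acid, Rigi, the cytoplasmic receptor for viral RNA, varied over 8.16 between group means, second to Zbp1 at 9.90. Rigi signal was 10.75, 10.83 and 10.77 in follicular cells, 10.65, 10.41 and 10.73 in marginal zone cells, 10.70, 11.04 and 10.49 in plasma cells and 2.61, 2.65 and 2.62 in stimulated cells. It was 8.93, 10.81 and 10.57 at day 7 and 10.00, 10.54 and 10.55 at day 40 in memory cells, and 6.77, 5.97 and 5.39 at day 7 and 3.39, 2.61 and 2.93 at day 40 in germinal center cells. Every germinal center and stimulated array lay below every other array, and the low memory value of 8.93 is that of day 7 replicate 1. Zbp1, which binds Z-form nucleic acid and can start necroptosis, had another order. Its signal was 13.37, 13.09 and 13.34 in plasma cells, 8.71, 10.05 and 9.79 in follicular cells, 10.09, 10.13 and 10.16 in marginal zone cells and 4.24, 3.01 and 2.86 in stimulated cells. Memory cells had 10.53, 10.37 and 9.83 at day 7 and 9.82, 9.28 and 9.39 at day 40, and germinal center cells 9.47, 9.53 and 9.61 at day 7 and 9.41, 8.77 and 9.36 at day 40. Plasma arrays were the highest and stimulated arrays the lowest, with no overlap with any other group, and all others lay between 8.71 and 10.53. The probe sets of Zbp1 disagreed on germinal center cells of day 7: against follicular cells this one differed by 0.02 ± 0.34 (SE) and the other by -3.34 ± 0.47. Ifih1, a receptor for long double-stranded RNA, ranged over 2.95 between group means and was highest in marginal zone cells (5.59 ± 0.44, SD, n = 3). Dhx58, the third receptor of this family, stayed between 7.52 and 10.23 on all arrays outside the stimulated group, where it was 3.38, 2.62 and 4.95.

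Usp18, which strips Isg15 from proteins and dampens the type I receptor, was at 8.55, 9.77 and 9.52 in follicular cells, 9.44, 9.06 and 9.35 in marginal zone cells, 8.78, 8.16 and 8.50 in plasma cells and at the floor of 2.15 on all 3 arrays in stimulated cells. Memory cells had 6.50, 8.03 and 6.63 at day 7 and 6.27, 6.79 and 6.31 at day 40, and germinal center cells 6.95, 6.37 and 4.98 at day 7 and 5.93, 2.65 and 4.03 at day 40. Follicular and marginal zone arrays lay above all memory and germinal center arrays, and the values within the day 40 germinal center group were wide apart. Irf7, the factor that drives type I interferon transcription, was nearly flat elsewhere: its 21 arrays outside the stimulated group lay between 7.49 and 9.07, against 2.49, 2.49 and 2.22 in stimulated cells. Nmi and Ifi35, partners of each other, ranged over only 1.08 and 1.19 between group means.

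Of the 12 antiviral effectors, the 3 Ifit genes, whose proteins bind viral RNA, had their highest signal in naive cells and were low in plasma cells. Ifit3 signal was 9.48, 9.62 and 9.51 in follicular cells, 11.02, 10.95 and 11.01 in marginal zone cells, 2.38, 2.27 and 2.43 in plasma cells and 2.24, 2.36 and 2.24 in stimulated cells. It was 6.59, 8.42 and 8.33 at day 7 and 6.53, 8.03 and 8.04 at day 40 in memory cells, and 4.54, 3.23 and 2.51 at day 7 and 2.91, 2.29 and 2.36 at day 40 in germinal center cells. The order was marginal zone, follicular, memory and then the rest, with no overlap between these 4 levels. Ifit2 had 8.66, 9.44 and 9.09 in follicular cells, 9.44, 9.32 and 9.25 in marginal zone cells, 2.56, 2.55 and 2.55 in plasma cells and 2.67, 3.22 and 2.51 in stimulated cells. Memory cells had 6.88, 7.40 and 6.90 at day 7 and 7.09, 7.52 and 7.15 at day 40, and germinal center cells 5.30, 6.14 and 5.53 at day 7 and 4.05, 3.91 and 3.79 at day 40. The 3 levels of memory cells, day 7 germinal center cells and day 40 germinal center cells did not overlap, and plasma cells lay near the floor. Ifit1 lay within 0.2 of its lowest value on 18 of 24 arrays and was above it in marginal zone cells (6.30, 7.14 and 7.84) and in follicular cells (2.85, 5.64 and 4.97).

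Mx1 encodes a GTPase that blocks influenza virus, although C57BL/6 mice carry a deletion in the gene that removes its function. Its signal was 9.67, 10.63 and 10.60 in follicular cells, 12.19, 11.87 and 11.94 in marginal zone cells, 9.95, 9.66 and 10.00 in plasma cells and 4.66, 4.23 and 4.39 in stimulated cells. Memory cells had 8.96, 10.81 and 10.31 at day 7 and 7.21, 7.91 and 8.39 at day 40, and germinal center cells 3.20, 4.66 and 3.57 at day 7 and 3.55, 3.96 and 3.28 at day 40. Marginal zone arrays were the highest and did not overlap follicular ones, and germinal center and stimulated arrays were the lowest. Rsad2, or viperin, which makes a chain-terminating nucleotide, had 5.17, 6.81 and 6.72 in follicular cells, 9.05, 8.77 and 9.34 in marginal zone cells, 7.38, 8.13 and 8.00 in plasma cells and 2.45, 2.45 and 2.51 in stimulated cells. It had 6.20, 7.74 and 6.86 at day 7 and 4.21, 5.79 and 4.62 at day 40 in memory cells, and 4.21, 2.51 and 3.07 at day 7 and 2.42 on all 3 arrays at day 40 in germinal center cells. Again the marginal zone arrays were the highest, and the plasma arrays lay above the follicular ones. Its neighbour Cmpk2, a nucleotide kinase, did not share that order: follicular cells had 7.54, 9.25 and 8.37, marginal zone cells 7.27, 6.17 and 7.84, plasma cells 8.05, 6.75 and 7.78 and stimulated cells 3.36 on all 3 arrays. Memory cells had 5.85, 5.92 and 5.86 at day 7 and 6.19, 5.76 and 6.30 at day 40, and germinal center cells 6.73, 6.44 and 5.14 at day 7 and 3.36 on all 3 arrays at day 40. Cmpk2 sat at its lowest value on every day 40 germinal center and stimulated array, and its follicular and marginal zone arrays overlapped.

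Oas2 and Oasl2 belong to the oligoadenylate synthetase family, which activates RNase L. Oas2 was above the floor mainly in naive cells, with 7.06, 7.13 and 7.59 in marginal zone cells and 2.23, 5.10 and 3.63 in follicular cells, and 18 of the 24 arrays lay within 0.2 of its lowest value. In memory cells it was 2.15, 2.16 and 3.01 at day 7 and 2.15 on all 3 arrays at day 40, and it was 2.15 on all 3 arrays of plasma cells, of stimulated cells and of germinal center cells at each day. Oasl2 was 4.81, 6.67 and 6.43 in follicular cells, 6.06, 4.51 and 6.52 in marginal zone cells, 3.97, 4.97 and 4.01 in plasma cells and 2.15 on all 3 arrays in stimulated cells. It was 4.03, 4.10 and 5.16 at day 7 and 3.21, 2.93 and 3.42 at day 40 in memory cells, and 2.94, 2.67 and 2.42 at day 7 and 2.44, 2.15 and 2.15 at day 40 in germinal center cells. Follicular and marginal zone arrays of Oasl2 overlapped, and those of day 40 memory cells lay below both. Bst2, or tetherin, which holds budding virus at the membrane and is known on plasma cells, was 12.67, 12.22 and 12.61 in plasma cells, 8.52, 9.08 and 9.06 in follicular cells, 8.92, 8.80 and 8.96 in marginal zone cells and 9.03, 9.08 and 9.94 in stimulated cells. Memory cells had 9.38, 9.44 and 9.39 at day 7 and 8.98, 8.72 and 8.76 at day 40, and germinal center cells 7.42, 7.48 and 7.05 at day 7 and 7.01, 6.55 and 6.94 at day 40. Plasma arrays were the highest and germinal center arrays the lowest, with no overlap with other groups. Samhd1, which depletes the nucleotides that viruses need, was 13.60, 13.79 and 13.69 in follicular cells, 12.40, 12.51 and 12.88 in marginal zone cells, 13.89, 14.13 and 14.00 in plasma cells and 10.09, 10.64 and 10.06 in stimulated cells. It was 13.34, 13.54 and 13.63 at day 7 and 13.32, 13.19 and 13.60 at day 40 in memory cells, and 13.42, 13.50 and 13.40 at day 7 and 13.01, 12.80 and 13.10 at day 40 in germinal center cells. Plasma arrays were the highest, and marginal zone arrays lay below follicular ones without overlap. Another bright probe set of Samhd1 had a plasma mean of 12.47, below the 13.39 of follicular cells, and a dimmer probe set 11.44, above 11.04. Trim30a and Eif2ak2, the kinase PKR that halts translation, ranged over 2.12 and 1.51 between group means.

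The GTPases of this set act on vacuoles that hold intracellular pathogens. Gbp2 signal was 7.55, 8.25 and 7.92 in follicular cells, 9.92, 9.62 and 10.62 in marginal zone cells, 9.28, 8.86 and 9.20 in plasma cells and at the floor, 2.15 on all 3 arrays, in stimulated cells. Memory cells had 7.79, 8.96 and 8.63 at day 7 and 7.35, 8.30 and 8.42 at day 40, and germinal center cells 4.24, 3.05 and 3.02 at day 7 and 6.87, 3.62 and 5.85 at day 40. Germinal center arrays lay below all but the stimulated ones, and the 3 arrays of day 40 were spread over more than 3 units, with the highest on replicate 1. Gbp3 had 10.81, 11.47 and 11.22 in follicular cells, 12.51, 12.09 and 12.71 in marginal zone cells, 11.25, 11.22 and 11.21 in plasma cells and 4.29, 4.56 and 5.87 in stimulated cells. It had 10.58, 11.29 and 10.84 at day 7 and 10.86, 11.12 and 10.41 at day 40 in memory cells, and 8.92, 8.86 and 8.54 at day 7 and 9.52, 9.21 and 9.44 at day 40 in germinal center cells. As for Gbp2, marginal zone arrays were the highest and stimulated arrays the lowest, with germinal center arrays next above them. Ifi47 was 12.22, 12.23 and 12.29 in follicular cells, 12.25, 12.08 and 12.36 in marginal zone cells, 9.58, 9.57 and 9.35 in plasma cells and 9.01, 8.66 and 9.08 in stimulated cells. It was 10.04, 10.42 and 10.03 at day 7 and 10.42, 10.28 and 10.52 at day 40 in memory cells, and 8.64, 8.36 and 8.96 at day 7 and 10.78, 10.59 and 10.94 at day 40 in germinal center cells. All naive arrays lay above all others, and germinal center cells of day 40 lay above those of day 7. Igtp was highest in plasma cells (11.96 ± 0.31) and Irgm1 in marginal zone cells (11.20 ± 0.13, SD, n = 3).

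Pml, which builds the nuclear bodies named after it, had the widest range of group means of all 38 genes, 10.36. Its signal was 12.47, 12.57 and 12.49 in follicular cells, 12.12, 12.04 and 12.04 in marginal zone cells, 12.27, 12.32 and 12.20 in plasma cells and 8.24, 6.46 and 7.83 in stimulated cells. Memory cells had 12.50, 13.44 and 13.43 at day 7 and 12.63, 12.65 and 12.85 at day 40, and germinal center cells 2.88, 2.53 and 2.88 at day 7 and 5.06, 2.88 and 2.53 at day 40. Germinal center arrays lay far below all others, and of these the highest was day 40 replicate 1, the germinal center array with the highest neutrophil sum. The part of neutrophil transcripts in that value was not tested. Both other probe sets of Pml were lower in germinal center cells of day 7 than in follicular cells as well, by -9.18 ± 0.30 (SE) and -3.79 ± 0.67. Sp100, the partner of Pml in nuclear bodies, kept a signal between 11.17 and 12.22 in germinal center cells. Ifi213, a nuclear protein of the family that binds DNA, was 12.28, 12.51 and 12.48 in follicular cells, 13.08, 12.93 and 12.97 in marginal zone cells, 7.98, 7.02 and 7.07 in plasma cells and 3.63, 3.05 and 3.32 in stimulated cells. It was 9.85, 9.88 and 10.19 at day 7 and 10.97, 11.25 and 11.07 at day 40 in memory cells, and 5.51, 5.30 and 5.89 at day 7 and 4.31, 3.24 and 3.05 at day 40 in germinal center cells. Its levels fell into an order of marginal zone, follicular, day 40 memory, day 7 memory, plasma and day 7 germinal center cells, with no overlap between neighbours. Parp9 and Dtx3l, which form an enzyme together, and Parp14 ranged over 4.37, 1.49 and 3.32 between group means and were lowest in stimulated cells.

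The antigen processing genes were the steadiest group outside stimulated cells. Psmb8 and Psmb9, subunits of the immunoproteasome, lay between 12.73 and 13.67 and between 12.42 and 13.41 on the other 21 arrays, and Tap1, which carries peptides to class I molecules, between 11.94 and 13.15. In stimulated cells their means were 11.07 ± 0.09, 9.55 ± 0.35 and 11.09 ± 0.05 (SD, n = 3).

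Of the remaining genes, Rtp4, a receptor transporter, was close to all or none. Its signal was 9.05, 9.17 and 9.20 in follicular cells and 9.86, 9.45 and 9.96 in marginal zone cells, against 3.13, 3.33 and 3.09 in plasma cells and 3.09 on all 3 arrays of stimulated cells. Memory cells had 3.21, 4.14 and 3.21 at day 7 and 3.21, 5.17 and 3.23 at day 40, and germinal center cells a mean of 3.06 ± 0.05 (SD, n = 3) at day 7 and 3.09 on all 3 arrays at day 40. No array outside the naive groups exceeded 5.17, the value of memory day 40 replicate 2. Lgals3bp, a secreted glycoprotein that binds galectins, was 10.49, 10.35 and 10.28 in plasma cells, 9.11, 8.75 and 9.48 in marginal zone cells, 4.49, 6.62 and 5.83 in follicular cells and 2.72, 2.72 and 3.26 in stimulated cells. It was 5.49, 6.68 and 6.84 at day 7 and 5.11, 5.52 and 5.34 at day 40 in memory cells, and 2.41, 2.16 and 2.72 at day 7 and 2.72, 2.15 and 2.41 at day 40 in germinal center cells. Plasma arrays were the highest, marginal zone arrays came next, and germinal center arrays lay near the floor. Xaf1, which favours apoptosis, was 10.29, 10.83 and 10.87 in follicular cells, 11.26, 11.24 and 11.42 in marginal zone cells, 10.62, 10.33 and 10.66 in plasma cells and 3.61, 3.61 and 2.92 in stimulated cells. It was 9.73, 10.31 and 9.91 at day 7 and 9.64, 9.89 and 9.63 at day 40 in memory cells, and 6.71, 7.74 and 7.92 at day 7 and 7.89, 7.50 and 8.19 at day 40 in germinal center cells. Germinal center arrays lay between the stimulated ones and all others. Ifi27 was highest in marginal zone cells (14.08 ± 0.02) and lowest in stimulated cells (8.30 ± 1.24, SD, n = 3), and its probe set is of a kind that can bind other transcripts.

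**Figure D3:**
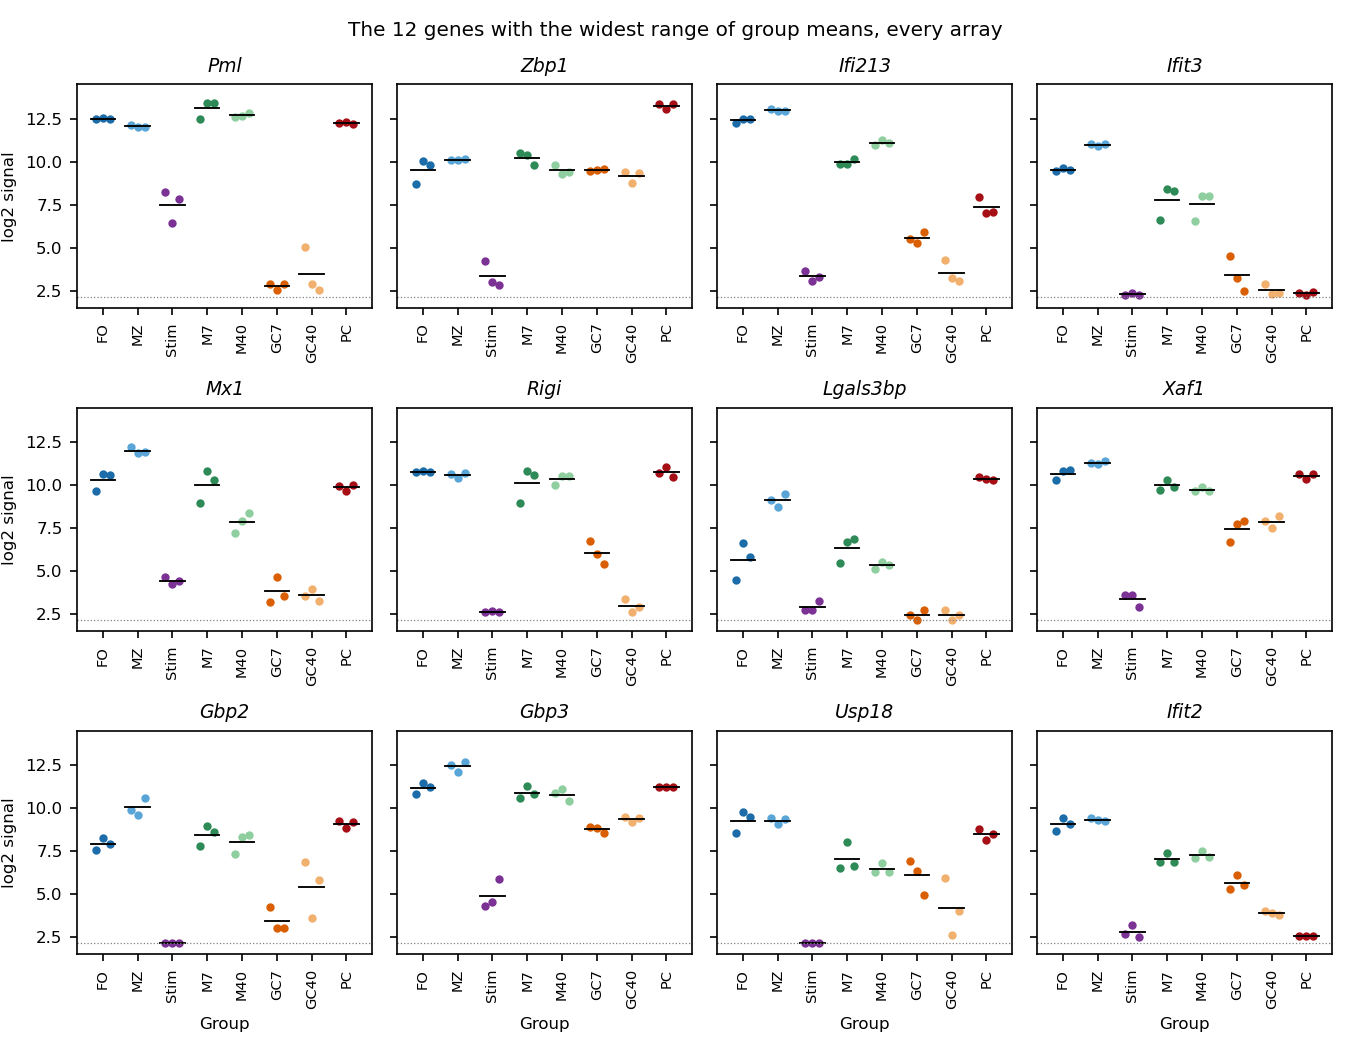
Log2 signal (vertical axis) of the 12 genes with the widest range of group means in the 8 groups (horizontal axis: FO follicular, MZ marginal zone, Stim stimulated follicular, M7 and M40 memory of day 7 and day 40, GC7 and GC40 germinal center of day 7 and day 40, PC plasma). Each dot is an array, each bar the mean of 3 arrays and the dotted line the floor of 2.15. Pml is lowest in germinal center cells and next lowest in stimulated cells, while Zbp1 and Lgals3bp peak in plasma cells.

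Comparison of marginal zone with follicular B cells asks how the naive populations differ at rest. In marginal zone cells 9 of the 38 genes rose and 1 fell, where 7.21% of all tested genes were called higher and 3.83% lower. The median difference was 0.29, against 0.00 over all genes. The largest rises were those of Oas2, 3.61 ± 0.43 (adjusted p = 3.85e-06), Lgals3bp, 3.47 ± 0.40 (adjusted p = 3.34e-06), and Rsad2, 2.82 ± 0.48 (adjusted p = 2.89e-04), each as log2 difference ± SE. Ifih1, Ifit1, Gbp2, Mx1, Ifit3 and Gbp3 rose by 2.65, 2.61, 2.15, 1.70, 1.46 and 1.27. Samhd1 fell, -1.10 ± 0.16 (adjusted p = 5.16e-05), and Cmpk2, at -1.29 ± 0.45 (adjusted p = 0.0574), did not pass the test. Of 13 measured genes with a response element match, 6 rose, and of 16 with a RefSeq promoter and no match, 1 rose. Of 32 other interferon-stimulated genes tested, 6 rose, led by Ddx60, 3.68 ± 0.24 (adjusted p = 9.40e-10), and Gbp7, 1.71 ± 0.49 (adjusted p = 0.0186). The summed signal of 11 macrophage and monocyte markers was higher in marginal zone cells, 12.42 to 12.99 against 7.89 to 9.23. Itgam, Cd14, Fcgr1 and C1qa were at background in both groups. Of 8 of these markers tested, 3 rose (Ms4a7, Mpeg1 and Cd68), 1 fell (Adgre1) and 4 were not called. The part of those transcripts in the rises of the set was not tested. Samhd1 was no longer called without marginal zone replicate 1 (adjusted p = 6.12e-04, with a size just under 1). Ifit3 was called in 10 of 18 other settings, Gbp2 and Mx1 were lost without follicular replicate 1, the follicular array with the lowest average over the set (0.99 against 1.48 and 1.64), and Gbp2 also without marginal zone replicate 3.

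Stimulation of follicular cells went with a fall of nearly the whole set. After 6 h, 33 of the 38 genes had fallen and none had risen, where 22.4% of all tested genes were called lower and 16.9% higher (limma), and 1 gene was higher at an unadjusted p under 0.05. The median difference was -3.76, against -0.02 over all genes. The largest falls among genes not at background were those of Ifi213, -9.09 ± 0.28 (adjusted p = 7.40e-15), Rigi, -8.16 ± 0.38 (adjusted p = 2.31e-12), and Xaf1, -7.28 ± 0.28 (adjusted p = 1.14e-13). Rigi lay within 0.2 of its lowest value on all 3 stimulated arrays, so its fall can be understated. For Ifit3 (-7.26 ± 0.48), Usp18 (-7.13 ± 0.62), Irf7 (-5.93 ± 0.28) and Gbp2 (-5.76 ± 0.57) the difference is a lower bound on the size of the fall, as it is for Oasl2, Rsad2, Ifit1 and Oas2. All 3 antigen processing genes fell, by 1.94 for Psmb8, 3.07 for Psmb9 and 1.66 for Tap1. Bst2 (0.46 ± 0.22), Ifi35 (-0.28 ± 0.17), Ifih1 (-0.30 ± 0.54) and Eif2ak2 (-0.63 ± 0.48) were not called, and neither was Nmi, -0.99 ± 0.14 (adjusted p = 6.40e-06), which missed only the size of 1. Both other probe sets of Eif2ak2 were called lower, by -3.13 ± 0.34 (SE) and -5.08 ± 0.54. Of the genes with a response element match 10 of 13 fell, and of those without 14 of 16, a difference that was not tested. The 4 measured B cell markers also fell, with a summed signal of 15.12 to 15.29 against 16.60 to 16.71, and their bearing on the falls was not tested.

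Memory cells were lower than follicular cells for part of the set. At day 7, 12 of 38 genes fell and none rose, where 9.2% of all tested genes were called lower and 9.18% higher (limma), and the median difference was -0.37 against -0.04. At day 40, 14 fell and none rose, where 6.54% were called lower and 7.23% higher, and the median difference was -0.60 against -0.04. At an unadjusted p under 0.05, 3 genes were higher at day 7 and 0 at day 40. Comparisons with follicular cells share the same 3 follicular arrays. Rtp4 fell most at both days, -5.62 ± 0.36 (adjusted p = 9.25e-10) and -5.27 ± 0.36 (adjusted p = 3.07e-09). At day 7 Cmpk2, -2.51 ± 0.45 (adjusted p = 2.89e-04), and Ifi213, -2.45 ± 0.28 (adjusted p = 2.20e-06), came next, and at day 40 Usp18, -2.82 ± 0.62 (adjusted p = 0.00222), and Oasl2, -2.78 ± 0.48 (adjusted p = 2.51e-04). Antiviral effectors made up 6 of the 12 falls at day 7 and 8 of the 14 at day 40, while no sensor and no antigen processing gene was called at either day with the probe sets used. The probe sets of Rigi disagreed at both days, where some were called lower and the one used was not. Its other probe sets had means of 11.08 and 4.11 in follicular cells. In memory cells these were 9.06 and 2.46 at day 7 and 10.24 and 2.15 at day 40. The summed signal of 11 macrophage and monocyte markers was 12.38 to 12.80 in memory cells of day 7 and 11.09 to 12.29 in those of day 40. In follicular cells it was 7.89 to 9.23. The summed signal of 9 germinal center markers was 14.39 to 15.53 in memory cells of day 7 and 14.88 to 15.18 in those of day 40, against 13.75 to 13.90 in follicular cells. The part of either cell type in the falls of memory cells was not tested. Memory day 7 replicate 1 was the memory array with the highest germinal center sum and also held neutrophil transcripts. Without it, Ifit3, Irgm1, Oas2 and Oasl2 were no longer called lower at day 7, and Ifih1 and Lgals3bp were called higher.

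Germinal center cells were lower than follicular cells for most of the set, with the 3 antigen processing genes among those that were not called. At day 7, 24 of 38 genes fell and none rose, where 16.6% of all tested genes were called lower and 14.4% higher, with a median difference of -2.05 against 0.00. At day 40, 26 fell and none rose, where 15.6% were called lower and 16.8% higher, with a median of -1.65 against 0.00. At an unadjusted p under 0.05 (limma), 0 genes were higher at day 7 and 2 at day 40. The largest falls at day 7 were those of Pml, -9.75 ± 0.48 (adjusted p = 1.36e-11), Ifi213, -6.86 ± 0.28 (adjusted p = 9.49e-13), and Mx1, -6.49 ± 0.42 (adjusted p = 6.31e-10). At day 40 they were those of Pml, -9.02 ± 0.48 (adjusted p = 2.30e-11), Ifi213, -8.89 ± 0.28 (adjusted p = 1.28e-14), and Rigi, -7.81 ± 0.38 (adjusted p = 6.16e-12). All 5 GTPases and 10 of 12 antiviral effectors fell at each day. Irf7, Psmb8 and Psmb9 were not called at either day, with differences of 0.19 ± 0.28, 0.20 ± 0.11 and 0.24 ± 0.14 at day 7, and neither was Samhd1 (-0.25 ± 0.16) nor Dhx58 (-0.32 ± 0.38). Of the 13 measured genes with a response element match, 11 fell at day 7 with a median of -2.97, and of the 16 without a match 7 fell with a median of -0.94. The difference between these shares was not tested.

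Against memory cells of the same day, which shared the immunization, the isotype and hapten binding, germinal center cells were also lower. At day 7, 18 of 38 genes were lower and none higher, where 12.1% of all tested genes were called lower and 11.6% higher. At day 40, 19 were lower and none higher, where 12.6% were called lower and 15.3% higher. Median differences were -0.91 and -1.06, against 0.01 over all genes at each day, and 0 and 3 genes were higher at an unadjusted p under 0.05 (limma). Pml led at both days, -10.36 ± 0.48 (adjusted p = 9.02e-12) and -9.22 ± 0.48 (adjusted p = 2.65e-11), followed at day 7 by Mx1, -6.22 ± 0.42 (adjusted p = 2.01e-09), and Gbp2, -5.02 ± 0.57 (adjusted p = 1.65e-06), and at day 40 by Ifi213, -7.56 ± 0.28 (adjusted p = 2.00e-13), and Rigi, -7.39 ± 0.38 (adjusted p = 1.97e-11). With memory day 7 replicate 1, memory day 40 replicate 2 and germinal center day 40 replicate 1, the arrays with the most neutrophil transcripts outside plasma cells, left out together, 18 were lower at day 7 and 20 at day 40. Ifih1 was the least firm of these calls, kept in 11 of 17 other settings at day 7 and in 7 of 17 at day 40. Macrophage and monocyte markers summed to 9.35 to 10.13 in germinal center cells and 12.38 to 12.80 in memory cells of day 7. At day 40 the sums were 10.03 to 11.29 and 11.09 to 12.29. The part of those transcripts in the differences was not tested.

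Plasma cells split the set. Against follicular cells 5 genes rose and 13 fell, where 20.3% of all tested genes were called higher and 22.4% lower, so the share that rose was below and the share that fell somewhat above that of all genes. The rises were those of Lgals3bp, 4.73 ± 0.40 (adjusted p = 7.49e-09), Zbp1, 3.75 ± 0.33 (adjusted p = 1.34e-08), Bst2, 3.61 ± 0.22 (adjusted p = 4.49e-11), Ifih1, 1.93 ± 0.54 (adjusted p = 0.00436), and Rsad2, 1.60 ± 0.48 (adjusted p = 0.0075). The falls were led by Ifit3, -7.18 ± 0.48 (adjusted p = 2.07e-10), a lower bound, by Ifit2, -6.51 ± 0.23 (adjusted p = 1.72e-14), and by Rtp4, -5.96 ± 0.36 (adjusted p = 4.60e-11). All 3 plasma arrays of Ifit2 lay within 0.2 of its lowest value, so its differences can be understated. Rsad2 lost its call without follicular replicate 1, and without follicular replicate 2 the falls numbered 9, with Irgm1, Oas2, Parp14 and Sp100 no longer called. Against germinal center cells of day 7, 19 genes were higher and 2 lower, where 18.1% were called higher and 20.1% lower, and the median difference was 1.07 against -0.05. Pml, 9.50 ± 0.48 (adjusted p = 5.66e-12), Lgals3bp, 7.94 ± 0.40 (adjusted p = 5.62e-12), and Mx1, 6.06 ± 0.42 (adjusted p = 5.51e-10), were the largest rises, and Ifit2, -3.10 ± 0.23 (adjusted p = 1.19e-09), and Dhx58, -1.23 ± 0.38 (adjusted p = 0.0102), were lower, Dhx58 no longer without plasma replicate 3 (adjusted p = 0.0608). Probe sets of Pml disagreed on plasma against follicular cells, with differences of -0.25 ± 0.48 (SE), -1.78 ± 0.30 and 1.79 ± 0.67, the last 2 called in opposite directions. Both other probe sets of Rigi were lower in plasma cells, -2.72 ± 0.40 and -1.93 ± 0.48, where the one used here gave -0.04 ± 0.38. Neutrophil markers, none of the 6 at background, were high on all 3 plasma arrays. Macrophage markers had a summed signal of 13.57 to 13.95 there, with Adgre1, Itgam, Fcgr1 and Ms4a7 at background. Of 8 macrophage markers tested against follicular cells, 6 rose and 1, Adgre1, fell. T cell markers summed to 12.84 to 13.54, with Cd3e, Cd3d and Cd3g at background. The part of all these transcripts in the rises of plasma cells was not tested.

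**Figure D4:**
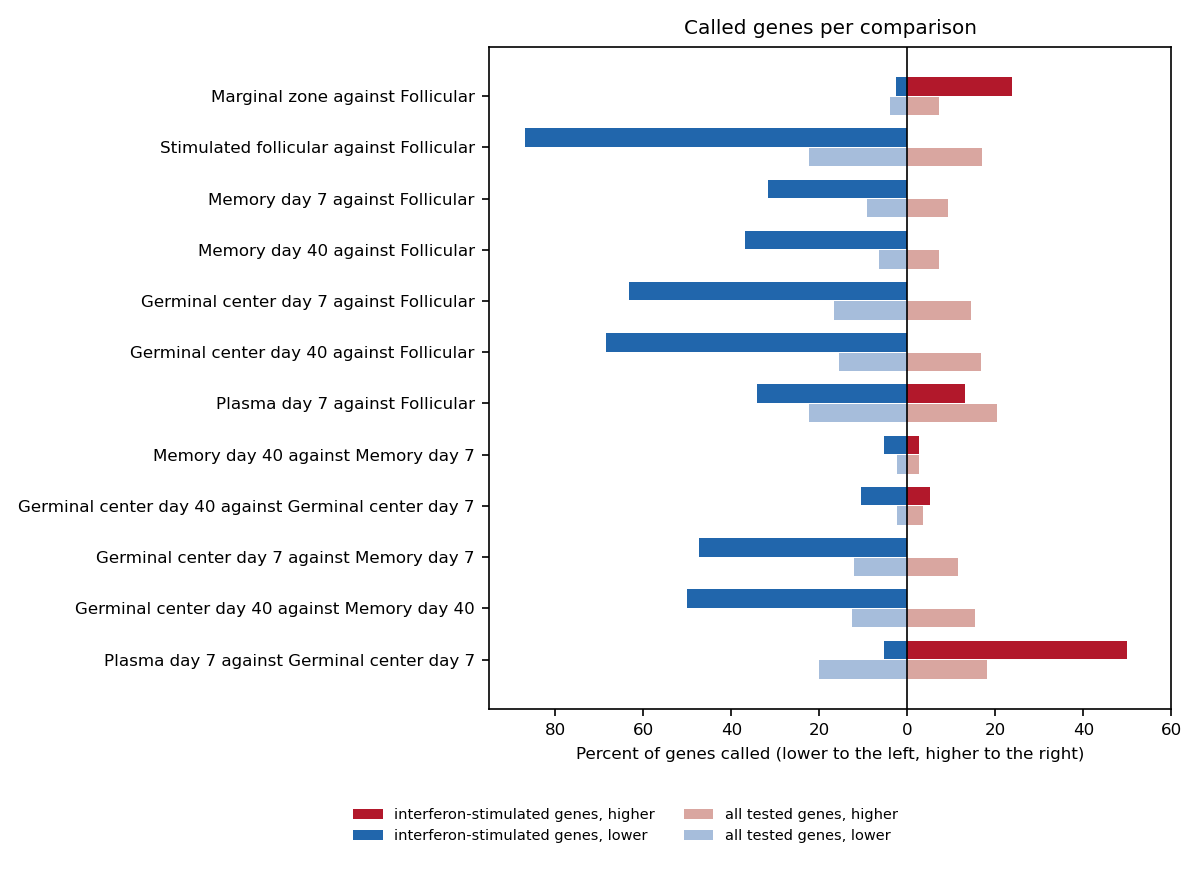
Percent of the 38 interferon-stimulated genes (dark bars) and of all 11208 tested genes (light bars) called lower (left of 0) or higher (right of 0) in each of 12 comparisons, where a call is a limma adjusted p under 0.05 and a log2 difference of at least 1 in size. The dark bars reach furthest to the left for stimulated and germinal center cells and furthest to the right for plasma against germinal center cells.

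Between day 7 and day 40 few genes moved. In memory cells Mx1, -2.19 ± 0.42 (adjusted p = 0.00247), and Rsad2, -2.06 ± 0.48 (adjusted p = 0.0103), fell and Ifi213, 1.12 ± 0.28 (adjusted p = 0.0154), rose, where 2.28% of all tested genes were called lower and 2.74% higher. Each of these 3 calls depended on the setting. Those of Mx1 and Rsad2 were lost when only the memory groups entered the fit (adjusted p = 0.129 and 0.143), that of Rsad2 also without memory day 7 replicate 2 or day 40 replicate 1, and that of Ifi213 without replicate 2 of either day (adjusted p = 0.0517 and 0.0602). In germinal center cells 4 genes fell and 2 rose, where 2.36% were called lower and 3.58% higher. The falls were those of Rigi, -3.07 ± 0.38 (adjusted p = 1.60e-05), Cmpk2, -2.74 ± 0.45 (adjusted p = 3.88e-04), Ifi213, -2.03 ± 0.28 (adjusted p = 5.60e-05), and Ifit2, -1.74 ± 0.23 (adjusted p = 3.35e-05). Cmpk2 lay at the lowest value of its probe set on all 3 day 40 arrays, so its fall can be understated, and the call of Ifi213 was lost when only the germinal center groups entered the fit (adjusted p = 0.055). Ifi47 rose, 2.12 ± 0.16 (adjusted p = 1.73e-08), and so did Gbp2, 2.01 ± 0.57 (adjusted p = 0.0327), although its arrays overlapped between the days and its call was kept in only 9 of 18 other settings, being lost without replicate 2 or 3 of day 7 or replicate 1 or 3 of day 40. The test of whether the germinal center minus memory difference itself changed between the days called 4 genes lower and 1 higher, where 2.03% and 2.92% of all genes were. These were Rigi, -3.33 ± 0.54 (adjusted p = 5.61e-04), Ifi213, -3.16 ± 0.40 (adjusted p = 3.75e-05), Cmpk2, -2.95 ± 0.64 (adjusted p = 0.00784), Ifit2, -1.93 ± 0.32 (adjusted p = 8.22e-04), and, in the other direction, Ifi47, 1.87 ± 0.22 (adjusted p = 1.92e-05). The call of Cmpk2 was lost with an offset of 16 before the logarithm (adjusted p = 0.0531). With the probe set used, memory and germinal center cells moved in opposite directions in Ifi213, and in Rigi, Cmpk2, Ifit2 and Ifi47 the memory means differed by no more than 0.26 between the days. The other probe set of Ifi213 lay at or near the floor in both germinal center groups and was not called here. In memory cells its means were also near the floor, 2.78 at day 7 and 2.20 at day 40. With probe sets averaged per gene, Ifi213 differed by 0.27 between the memory days (limma adjusted p = 0.537). Of the other probe sets of Rigi, 1 was also called (-2.60 ± 0.56, SE) and 1 was not (0.31 ± 0.68).

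**Figure D5:**
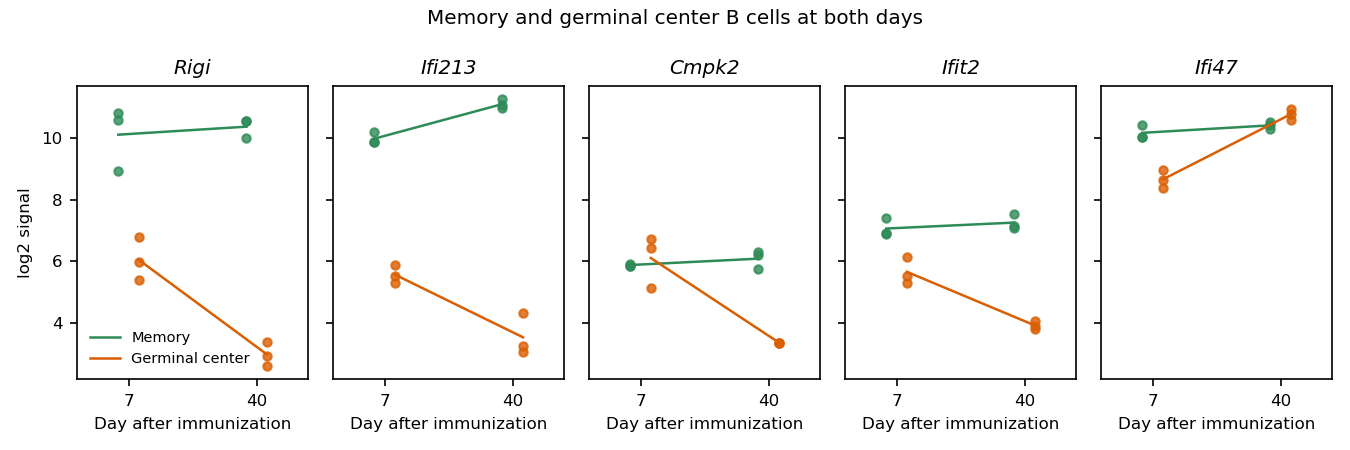
Log2 signal (vertical axis) of the 5 genes whose germinal center minus memory difference changed between day 7 and day 40 (horizontal axis). Dots are arrays, 3 per group, and lines join group means, green for memory and orange for germinal center cells. Rigi, Ifi213, Cmpk2 and Ifit2 fall and Ifi47 rises in germinal center cells, while memory cells change little except for a rise of Ifi213.

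The ligands, receptors and signalling genes of the pathway were measured on the same arrays. Of 8 interferon ligands only Ifng was tested, and Ifnb1 lay at the floor of 2.15 on all 24 arrays. Ifng rose in stimulated cells, 2.22 ± 0.27 (adjusted p = 8.79e-07), a lower bound, to 4.37 ± 0.92 (SD, n = 3). Of 7 measured markers of plasmacytoid dendritic cells, known as strong producers of type I interferon, Siglech and Cox6a2 were at background in every group and the other 5 were not, with a summed signal between 14.02 and 15.69 over the groups. Of the 6 receptor chains, 4 fell and 1 rose in germinal center cells at each day. Of all tested genes, 16.6% were called lower and 14.4% higher there at day 7, and 15.6% and 16.8% at day 40. Ifnar1, a chain of the type I receptor, was 10.56, 10.98 and 10.86 in follicular cells, against 7.91, 8.74 and 8.37 at day 7 and 7.95, 8.00 and 8.52 at day 40 in germinal center cells. Its fall was -2.46 ± 0.23 (adjusted p = 5.42e-08) and -2.64 ± 0.23 (adjusted p = 1.50e-08). Ifnar2, the other chain, was 8.46, 9.05 and 8.57 in follicular, 6.39, 5.91 and 6.91 at day 7 and 4.18, 3.23 and 4.09 at day 40 in germinal center and 11.65, 11.42 and 11.89 in plasma cells. It fell at day 7, -2.29 ± 0.35 (adjusted p = 2.21e-05), and at day 40, -4.86 ± 0.35 (adjusted p = 1.32e-09), and rose in plasma cells, 2.96 ± 0.35 (adjusted p = 5.46e-07). Germinal center arrays of both type I chains lay below all follicular arrays. Of the interferon gamma receptor, Ifngr2 fell in germinal center cells, -2.99 ± 0.66 (adjusted p = 9.00e-04) and -3.90 ± 0.66 (adjusted p = 6.28e-05), while Ifngr1 was not called there (-0.56 ± 0.46 and 0.13 ± 0.46). Ifnlr1, the specific chain of the lambda receptor, rose, 2.27 ± 0.53 (adjusted p = 0.0015) and 4.01 ± 0.53 (adjusted p = 3.96e-06), whereas its partner Il10rb fell, -5.24 ± 0.28 (adjusted p = 3.68e-11) at day 7.

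In stimulated cells neither Ifnar1 (-0.02 ± 0.23) nor Ifnar2 (-0.19 ± 0.35) was called, while Ifngr1, -4.35 ± 0.46 (adjusted p = 1.96e-07), and Ifngr2, -1.78 ± 0.66 (adjusted p = 0.0275), fell. All 5 tested genes of the signalling step fell there, against 22.4% of all tested genes: Stat2, -3.94 ± 0.21 (adjusted p = 1.66e-11), Irf9, -2.50 ± 0.14 (adjusted p = 2.31e-11), Jak1, Jak2 and Tyk2, the last 3 by 1.57, 1.43 and 1.36. Stat2 fell in every group but marginal zone cells relative to follicular cells, with mean signals of 9.65 ± 0.10 in follicular, 8.42 ± 0.28 and 8.25 ± 0.43 in memory, 8.18 ± 0.14 and 8.12 ± 0.33 in germinal center, 7.92 ± 0.22 in plasma and 5.71 ± 0.23 in stimulated cells (SD, n = 3 each). Irf9 fell in germinal center cells, -1.97 ± 0.14 (adjusted p = 1.49e-09) and -2.06 ± 0.14 (adjusted p = 4.68e-10), and in plasma cells, -1.12 ± 0.14 (adjusted p = 9.63e-07), and was not called in memory cells, where it missed the size of 1 (-0.51 ± 0.14 and -0.87 ± 0.14). Irf1, which acts downstream of interferon gamma, fell in stimulated cells, -2.66 ± 0.26 (adjusted p = 5.09e-08), in germinal center cells of day 7, -1.73 ± 0.26 (adjusted p = 1.72e-05), and in plasma cells, -1.08 ± 0.26 (adjusted p = 0.00124), but was not called at day 40 in germinal center cells (-0.75 ± 0.26).

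A further list of 41 interferon-stimulated genes, 32 of them tested, was counted in the same comparisons, and each count is to be read against the share of all tested genes. In stimulated cells 22 fell and 2 rose (22.4% and 16.9% of all tested genes), the falls led by Uba7, which activates Isg15, -8.39 ± 0.24 (adjusted p = 3.35e-15), and Gbp7, -6.71 ± 0.49 (adjusted p = 1.11e-09), and the rises by Ifitm2, 7.62 ± 0.78 (adjusted p = 1.23e-07). In germinal center cells 17 fell and 1 rose at day 7 (16.6% and 14.4% of all), and 15 fell and 2 rose at day 40 (15.6% and 16.8%), led by Gbp7, -7.85 ± 0.49 (adjusted p = 2.98e-10) and -6.97 ± 0.49 (adjusted p = 9.31e-10). In plasma cells, where 22.4% of all genes fell and 20.3% rose, 15 fell, led by Samd9l, -7.11 ± 0.43 (adjusted p = 5.94e-11), and 7 rose, a share near that of all genes, among them Ifitm2, 7.55 ± 0.78 (adjusted p = 1.06e-07), and Cxcl10, 6.28 ± 0.52 (adjusted p = 5.36e-09), genes also known in myeloid cells. In memory cells 9 fell and 2 rose at day 7 (9.2% and 9.18% of all), and 7 fell and 1 rose at day 40 (6.54% and 7.23%), led by Oasl1, -4.62 ± 0.34 (adjusted p = 7.85e-09) and -4.14 ± 0.34 (adjusted p = 4.20e-08). Of 12 tested genes of class I antigen presentation, 1 rose and 2 fell in stimulated cells, 3 fell in germinal center cells of day 7, 1 fell in those of day 40, and 2 rose in plasma cells. Except for the 3 falls at day 7, these class I shares were below those of all tested genes.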

How the data were processed

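RNA of 24 samples was amplified and hybridized to Affymetrix mouse expression arrays, 1 colour, 1 sample per array. The authors deposited log2 values summarised per probe set with GCRMA, per the submitters' processing notes, with no version given. GCRMA corrects for background and fits the arrays together, so dim probe sets pile up at a common floor and differences from it are compressed. Of the probe sets with 1 gene symbol in the platform annotation, the one with the highest mean was kept per gene, older symbols were matched by Entrez ID, and genes above the array median on at least 3 arrays were tested. Differences of group means were fitted with limma 3.58.1 in R 4.3.3 (lmFit and eBayes over all 24 arrays) with Benjamini-Hochberg adjustment over all tested genes, and the interaction as a contrast in the same fit. Every adjusted p in the text is from that limma fit, and errors of differences are standard errors. The fit was tested on simulated data. Promoters came from RefSeq. Settings tried are given in the closing section. All members could be named; signals of every array are given for the 12 with the widest range of group means and for the 3 largest rises and 3 largest falls per comparison whose arrays did not overlap, and up to 4 called genes per comparison of each other list are named. The members and gene lists were chosen with earlier results of these data known.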

Additional observations from a re-analysis of the deposited data

Results flagged for a closer look

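In 5 genes the difference between germinal center and memory cells changed between day 7 and day 40, by an interaction term in the limma fit over all genes. The change, day 40 minus day 7, was -3.33 ± 0.54 (adjusted p = 5.61e-04) for Rigi, -3.16 ± 0.40 (adjusted p = 3.75e-05) for Ifi213, -2.95 ± 0.64 (adjusted p = 0.00784) for Cmpk2, -1.93 ± 0.32 (adjusted p = 8.22e-04) for Ifit2 and 1.87 ± 0.22 (adjusted p = 1.92e-05) for Ifi47, as log2 ± SE. Within the germinal center, the arrays of the days did not overlap for any of these 5 genes. The interaction test had picked the 5 from the same arrays, so this adds no support of its own. Ifi47, a GTPase of the vacuole, was the 1 of them that rose in the germinal center. With memory day 7 replicate 1, memory day 40 replicate 2 and germinal center day 40 replicate 1 left out, the arrays with the most neutrophil transcripts in these groups, all 5 genes were still called and Mx1 was called as well. Smaller amounts of these transcripts on other memory and germinal center arrays stayed in. The call of Cmpk2, whose day 40 germinal center arrays all lay at its lowest value, was lost with an offset of 16 before the logarithm (-1.88, adjusted p = 0.0531). A second probe set was also called for Rigi, and the second probe set of Ifi213 was not called. The labels give no array batch, so a batch and the day of sorting cannot be told apart.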

How the results depend on the processing

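Over 36 other settings no member's call changed direction: of 209 calls, 154 were kept in every setting and 55 were lost in at least 1. The falls in stimulated and germinal center cells numbered within 1.5 times of the values reported above in every setting tried. Small counts moved. With a stricter filter on dim genes, which tested 31 members among 7839 genes, the marginal zone rises went from 9 to 5, the memory day 40 falls from 14 to 9, the plasma rises from 5 to 3 and the memory falls between the days from 2 to 1. With quantile normalization the marginal zone falls went from 1 to 2, the memory day 7 rises from 0 to 1 and the interaction rises from 1 to 2. With the arrays shifted to the same median the marginal zone falls were 2, and the median of all genes moved from -0.02 to 0.26 in stimulated against follicular cells, where that of the members was -3.48. An offset of 16 before the logarithm gave 2 marginal zone falls, 1 germinal center rise between the days instead of 2, and 2 interaction rises, and lost the interaction of Cmpk2 (adjusted p = 0.0531). With probe sets averaged per gene the marginal zone falls were 0, the memory day 7 rises 1, the memory rises between the days 0 instead of 1, the germinal center rises between the days 1 and the genes lower in plasma than in germinal center cells 1 instead of 2. Without a filter the germinal center rises between the days were 1. With no minimum size the rises were 2 instead of 0 in germinal center day 40 against follicular cells and against memory day 40 cells, and 8 instead of 5 in plasma cells. With only the compared groups in the fit the memory falls between the days were 0 instead of 2, and the germinal center rises 1. A trended and robust prior gave 1 memory day 7 rise. The cause was not tested beyond the smaller number of genes under the stricter filter.

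Leaving out 1 array at a time, the interaction rises ranged from 1 to 2, the germinal center rises between the days from 1 to 2, the marginal zone falls from 0 to 2, the memory changes between the days from 0 to 1 for rises and from 1 to 3 for falls, the memory day 7 rises from 0 to 2, and the genes lower in plasma than in germinal center cells from 1 to 3. Without memory day 7 replicate 1, memory day 40 replicate 2 and germinal center day 40 replicate 1 together, a setting chosen after seeing the data, the memory day 7 rises were 1, the memory rises between the days 0, the germinal center rises 1 and the interaction rises 2.

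Groups share replicate numbers. The correlations of the deviations of same-numbered arrays ranged from -0.50 to 0.44, and in no comparison were all 3 over 0.1. In plasma against day 7 germinal center cells all 3 were positive, from 0.07 to 0.33. With the number as a replicate block the interaction rises were 2 instead of 1, the marginal zone rises 8 without Ifit3 and the falls in germinal center against memory cells of day 40 numbered 18 without Ifih1, while every other call was kept. Having 3 arrays a group limits the precision of every mean, and signals near the floor have no order.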

Other observations

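Genes upstream of the interferon response, the endosomal and cytosolic sensing machinery, also differed between the B cell groups. Of 10 tested sensing adaptors, receptors and kinases, 3 rose and 1 fell in marginal zone cells relative to follicular cells. Of all tested genes, 7.21% were called higher there and 3.83% lower. Tlr3, the endosomal receptor for double-stranded RNA, rose by 4.27 ± 0.55 (adjusted p = 1.04e-05) and Tlr7, the receptor for single-stranded RNA, by 2.01 ± 0.33 (adjusted p = 1.69e-04), while Cgas, the cytosolic DNA sensor, fell, -1.22 ± 0.37 (adjusted p = 0.0287) (log2 difference ± SE, limma). In germinal center cells of day 7, 5 of the 10 fell, where 16.6% of all tested genes were called lower. Tlr7 signal was 9.29, 10.35 and 10.05 in follicular cells and 2.15 on all 3 arrays at day 7 and 2.44, 2.15 and 2.35 at day 40 in germinal center cells. Sting1, the adaptor that receives the signal of Cgas, was 12.75, 12.58 and 12.45 in follicular cells, 11.09, 10.69 and 10.65 at day 7 and 10.71, 10.38 and 10.60 at day 40 in germinal center cells and 8.78, 7.28 and 8.57 in stimulated cells. The follicular arrays of both genes lay above all germinal center arrays. In stimulated cells Sting1 fell, -4.38 ± 0.32 (adjusted p = 1.43e-09), whereas Cgas rose, 2.90 ± 0.37 (adjusted p = 2.23e-06).

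Socs3, an inhibitor of cytokine signalling, was the inhibitor that moved in most groups. It rose relative to follicular cells in memory cells of day 7, 3.12 ± 0.52 (adjusted p = 1.43e-04), and of day 40, 2.90 ± 0.52 (adjusted p = 4.20e-04), and fell in germinal center cells, -5.26 ± 0.52 (adjusted p = 1.49e-07) and -1.64 ± 0.52 (adjusted p = 0.0133), in plasma cells, -1.59 ± 0.52 (adjusted p = 0.0131), and in stimulated cells, -5.79 ± 0.52 (adjusted p = 2.28e-08). Its signal was 10.68, 11.13 and 11.62 in memory cells of day 7, 11.36, 10.57 and 10.84 in those of day 40 and 7.45, 7.78 and 8.83 in follicular cells.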
